A study of Mus musculus with 365 samples.

Results

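The Gimap genes encode GTPases of immunity-associated proteins, and they are described here in single bone marrow progenitor cells. The 8 genes Gimap1, Gimap3, Gimap4, Gimap5, Gimap6, Gimap7, Gimap8 and Gimap9 were chosen by name, through their Entrez identifiers, from a table of 23427 genes, and all 8 were found. The cells came from Ly6D+ EPLM (152 cells, chips 4, 5 and 6) and from TN EPLM, the triple negative fraction (213 cells, chips 1, 2 and 3). EPLM are early progenitors with lymphoid and myeloid potential, sorted here from the femurs of C57BL/6 mice. Both fractions came from mice with the Flt3Ltg transgene, which raises Flt3 ligand, so no wild-type progenitor was compared, and both came from pools of 2 mice whose age the labels do not give. Single cells were captured with the Fluidigm C1 system and sequenced from full-length cDNA. The question was how this gene family differed between the fractions and from cell to cell within each.

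Gimap proteins carry a GTP-binding domain of the AIG1 type, first described in plants, and several of them are anchored in membranes inside the cell. Their genes lie in one cluster, are read mainly in lymphocytes, and are best known for keeping lymphocytes alive: rats and mice without a working Gimap5 lose T cells, and mice without Gimap1 lose mature B and T cells. In rodents the products of Gimap3 and Gimap5 have been reported to bind proteins of the Bcl2 family, and human GIMAP6 binds the autophagy protein GABARAPL2.

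In the RefSeq gene table (GRCm38.p6) the 8 genes follow each other along chromosome 6 in the order Gimap8, Gimap9, Gimap4, Gimap6, Gimap7, Gimap1, Gimap5 and Gimap3. Each has its own promoter, and Gimap6 and Gimap3 are read from the minus strand. The promoters of the 3 genes with the lowest p-values in the comparison of the fractions are printed from RefSeq, 250 bases before the start of transcription and 50 after it, 5′ to 3′. They lie at chr6:48684328-48684627 (plus strand, Gimap4), chr6:48708195-48708494 (minus strand, Gimap6) and chr6:48675885-48676184 (plus strand, Gimap9). Capitals mark 4 short motifs on either strand: AGGAAG, bound by ETS factors, TGTGGT, bound by RUNX factors, CAGGTG, an E-box bound by E proteins, and TCCC followed after any 2 bases by GGGA, the palindrome bound by EBF factors.
Gimap4: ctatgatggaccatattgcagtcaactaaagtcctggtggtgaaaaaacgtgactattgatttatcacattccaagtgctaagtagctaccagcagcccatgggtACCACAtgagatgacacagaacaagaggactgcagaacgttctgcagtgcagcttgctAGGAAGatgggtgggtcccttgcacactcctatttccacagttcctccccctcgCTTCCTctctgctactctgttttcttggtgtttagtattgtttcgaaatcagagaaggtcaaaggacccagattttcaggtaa
Gimap6: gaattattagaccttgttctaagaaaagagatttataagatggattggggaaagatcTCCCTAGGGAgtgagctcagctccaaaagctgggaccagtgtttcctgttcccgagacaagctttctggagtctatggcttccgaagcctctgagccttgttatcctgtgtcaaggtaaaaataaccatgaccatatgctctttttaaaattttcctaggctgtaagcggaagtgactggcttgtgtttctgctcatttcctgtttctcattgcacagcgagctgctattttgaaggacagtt
Gimap9: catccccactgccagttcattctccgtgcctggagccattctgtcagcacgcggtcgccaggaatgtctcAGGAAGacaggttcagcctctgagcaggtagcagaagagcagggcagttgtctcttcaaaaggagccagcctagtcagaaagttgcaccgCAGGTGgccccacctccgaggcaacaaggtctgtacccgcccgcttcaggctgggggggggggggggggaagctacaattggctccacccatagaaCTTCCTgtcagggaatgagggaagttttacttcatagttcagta
The table holds 9 promoter windows for the 8 genes, since Gimap8 has 2 starts. The ETS motif was present in 7 of the 9 windows, against 35.4% of all 32851 promoters in the table. The windows of Gimap6 and of the first Gimap8 start lacked these letters. Gimap6 held the EBF palindrome, which 0.904% of all promoters hold and no other Gimap promoter held. The RUNX motif was found at Gimap1, Gimap4 and Gimap7, against 16.8% of all promoters, and the E-box at Gimap9, against 20.2%. Of the other letters searched on both strands, the STAT pattern TTCNNNGAA was found at Gimap3, Gimap6, Gimap7 and Gimap8 (8.3% of all promoters), TGGGAA, a core shared by Ikaros and RBPJ, at Gimap3 (25.6%), and the FOXO motif GTAAACA also at Gimap3 (3.65%). The IRF pattern, GAAA repeated after any 2 bases, was found at none (3.44% of all promoters). The windows held a median of 48.0% G and C, against 52.7% over all promoters. A match shows letters and not binding, and no binding data were used here.

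The chips held between 35734620 and 61415823 gene reads, and the median depth of a cell lay between 894864 and 1000074 reads on Ly6D+ chips and between 750934 and 823684 on TN chips. The lowest cell held 267852 reads. For values per cell every cell was thinned to 200000 reads, and detection of a gene meant at least 5 of them, or 25 CPM (counts per 1000000 reads). The gate gene Ly6d was detected in 144 of 152 cells from Ly6D+ and 31 of 213 from TN. Xist was detected in 41 cells, all on TN chip 2, whose label names pooled mice but no sex. Fewer than 1500 genes were detected in 7 Ly6D+ and 16 TN cells. At least 2 markers from a single list of mature T, NK or B cell genes were detected in 90 Ly6D+ and 50 TN cells. No pair of cells held identical counts. Each chip held cells of 1 fraction, so effects of a chip and of its fraction cannot be told apart, and what p-values measure is the spread of chips, possibly a technical one.

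Ly6D+ EPLM held more Gimap transcript than TN EPLM. Gimap4 and Gimap6 passed the test across all genes, and the other tested members had values in the same direction without passing it. Summed over the 8 genes, chips 4, 5 and 6 (Ly6D+) held 2058, 2199 and 2053 CPM, and chips 1, 2 and 3 (TN) held 528, 581 and 561 CPM. The sum was 3.78 times as high on the Ly6D+ chips, and each Ly6D+ chip lay above each TN chip. Of the 8 genes, 7 held enough reads for a test of the chip sums with edgeR's quasi-likelihood method, and 2 of them were called higher at an adjusted p under 0.05, against 0.0932% of the 11797 genes tested. No member was called lower (0.11% of all genes were). All Ly6D+ chips lay above all TN chips for 5 of the 7, against 7.64% of all genes. DESeq2 called 4 of the 7 higher, against 1.77% of the genes it tested, and limma-trend on chip means 5 of the 7, against 1.87%. At an unadjusted p under 0.05, 5 of the 7 were higher, against 4.27% of all genes. All 7 fold changes were above 1, as were 50.9% of all, and the median log2 fold change was 1.71 over the tested members and 0.01 over all genes. In sums over cells, fewer cells with a transcript and less transcript per cell cannot be told apart, and the counts per cell given further on bear on this.

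Gimap4 rose most among the members that passed. Its product has been studied in T cells, where it affects how fast they die once death has been triggered. Chips 4, 5 and 6 (Ly6D+) held 688, 631 and 466 CPM, and chips 1, 2 and 3 (TN) held 76.6, 73.2 and 70.2 CPM. The fractions did not overlap, and the TN chips lay within a few CPM of each other. These TN values rest on few cells, with Gimap4 detected in 8, 8 and 6 cells on chips 1, 2 and 3. A single cell held 35.0%, 23.2% and 56.0% of the Gimap4 reads of these chips, against 12.3%, 14.2% and 12.5% on chips 4, 5 and 6 (Ly6D+). Gimap4 averaged 595 ± 115 CPM over Ly6D+ chips and 73.3 ± 3.2 CPM over TN chips (SD, n = 3 each), 8.11-fold higher in Ly6D+ (edgeR adjusted p = 0.00478, log2 fold change 3.02 ± 0.23, SE). Without the cells that held 2 or more mature lymphocyte markers, 90 Ly6D+ and 50 TN cells, the log2 fold change dropped to 2.31 and did not pass (edgeR adjusted p = 0.202). Of all genes 0 were called with edgeR in that subset. The marker lists include Cd79a and Cd79b, which are also read in early B-lineage cells, so the cells left out need not be mature.

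Gimap6 rose 3.28-fold. Its human partner GABARAPL2 belongs to the Atg8 proteins that coat autophagosomes. Chips 4, 5 and 6 (Ly6D+) held 801, 1109 and 1053 CPM of Gimap6, and chips 1, 2 and 3 (TN) held 272, 341 and 291 CPM. The lowest Ly6D+ chip held more than double the highest TN chip. Gimap6 averaged 988 ± 164 CPM over Ly6D+ chips and 301 ± 35.5 CPM over TN chips (SD, n = 3 each; log2 fold change 1.71 ± 0.20, SE, edgeR adjusted p = 0.0277). This call was lost when any 1 of the 6 chips was left out (edgeR adjusted p from 0.0622 to 0.149), while the log2 fold change stayed between 1.61 and 1.84. Without the cells with mature lymphocyte markers it was 1.63 (edgeR adjusted p = 0.121).

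Gimap9, Gimap1 and Gimap7 had higher values on every Ly6D+ chip than on any TN chip, but did not pass. Gimap9 held 299, 226 and 282 CPM on chips 4, 5 and 6 (Ly6D+) and 106, 79.5 and 69.5 CPM on chips 1, 2 and 3 (TN). The fitted difference was 1.66 ± 0.27 in log2 (SE, edgeR adjusted p = 0.0852), and it passed with DESeq2 (adjusted p = 3.4e-06). Gimap1, which mature lymphocytes need, held 76.4, 71.8 and 102.8 CPM on the Ly6D+ chips and 20.7, 30.7 and 15.3 CPM on the TN chips. The fitted difference was 1.91 ± 0.44 in log2 (SE, edgeR adjusted p = 0.198), larger than that of Gimap6 but with more than double its error, and DESeq2 gave an adjusted p of 0.00168. The lncRNA gene Gimap1os lies on the other strand across Gimap1 in the GENCODE annotation, and the strand is not marked in these libraries, so the pair's reads cannot be told apart.

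Gimap7, whose human counterpart splits GTP as a dimer, held 118, 131 and 121 CPM on the Ly6D+ chips and 35.8, 50.1 and 88.7 CPM on the TN chips. The Ly6D+ chips lay close together and the TN chips far apart. A single cell held 80.4% of the Gimap7 reads of TN chip 3, the TN chip with the highest value. The log2 fold change was 1.08 ± 0.39 (SE, edgeR adjusted p = 0.456).

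Gimap5, Gimap8 and Gimap3 were low and gave no call. Gimap5, the survival factor of T cells, held 28.4, 15.5 and 18.4 CPM on chips 4, 5 and 6 (Ly6D+) and 11.3, 5.29 and 17.6 CPM on chips 1, 2 and 3 (TN), with overlapping fractions (edgeR adjusted p = 0.832, log2 fold change 0.87 ± 0.75, SE). Gimap8, the longest Gimap transcript in the table, held 42.3, 15.8 and 5.54 CPM on the Ly6D+ chips and 5.67, 0.745 and 9.22 CPM on the TN chips, and a single cell held 86.9% of its reads on TN chip 3. Its fractions overlapped too (edgeR adjusted p = 0.712, log2 fold change 2.03 ± 1.15, SE). Single chips moved this value, to 1.03 without Ly6D+ chip 4 and to 2.70 without TN chip 3. Gimap3 was too low to test, with 337 reads in all, found in 8 Ly6D+ cells and 1 TN cell. Gimap5 and Gimap3 are close copies: their coding sequences matched at 90.4% of aligned bases and shared a run of 140 identical bases, so reads may have been assigned to the wrong copy and both are uncertain. The next closest pair, Gimap9 and Gimap7, matched at 66.6% with no shared run over 17 bases.

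**Figure D1:**
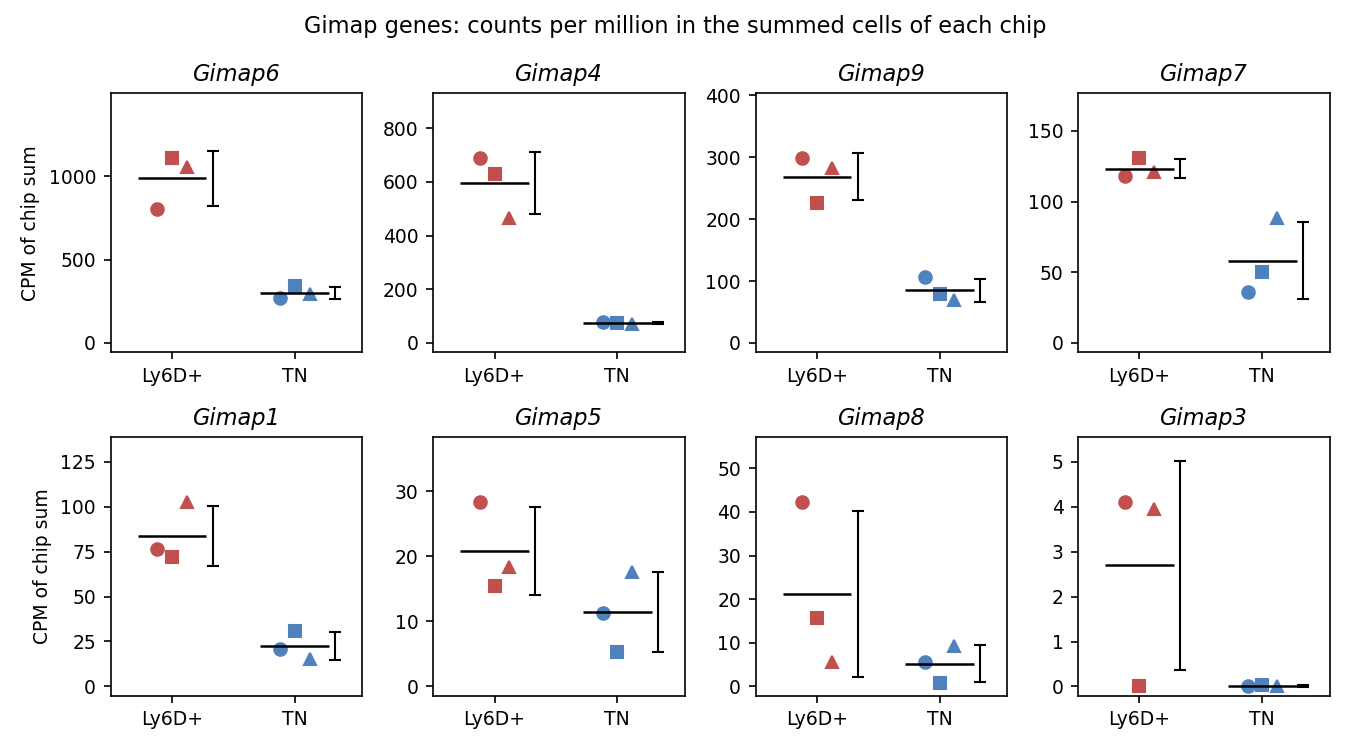
CPM of each Gimap gene in the summed cells of each chip (circles, squares and triangles are chips 4, 5 and 6 for Ly6D+, red, and chips 1, 2 and 3 for TN, blue). Horizontal lines are means and brackets 1 SD over 3 chips, and each panel has its own linear axis. Gimap6, Gimap4, Gimap9, Gimap7 and Gimap1 show no overlap between Ly6D+ and TN chips, while Gimap5 and Gimap8 overlap.

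Set against transcript length, Gimap6 was the most abundant member in both fractions. Lengths came from the deposited table, and levels are TPM, read counts per base scaled to a common total in each chip. On each Ly6D+ chip the order was Gimap6, Gimap4, Gimap9, Gimap7, Gimap1 and Gimap5, with Gimap8 and Gimap3 last in either order. The levels were 1294 ± 201 TPM for Gimap6, 695 ± 138 for Gimap4, 411 ± 63 for Gimap9, 205 ± 9 for Gimap7 and 118 ± 23 for Gimap1 (SD, n = 3 chips). In TN, Gimap6 stood at 396 ± 61 TPM and came first on all 3 chips, but Gimap9 (131 ± 36 TPM), Gimap7 (94.9 ± 37.5) and Gimap4 (85.9 ± 9.4) followed in an order that varied. Gimap9 lay above Gimap4 on every TN chip (169, 126 and 97.6 TPM for Gimap9 and 93.3, 89.0 and 75.4 TPM for Gimap4 on chips 1, 2 and 3), without overlap. Gimap7, at 62.1, 86.9 and 135.7 TPM, was below both on chips 1 and 2 and above both on chip 3, and its range overlapped with each. Gimap1 (31.6 ± 12.6 TPM) and Gimap5 (12.1 ± 5.8) followed in this order on all 3 TN chips. In Ly6D+, Gimap5 stood at 22.6 ± 7.7 TPM.

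The make-up of the family differed most for Gimap4. It gave 25.2% ± 5.1 of the summed Gimap level per length in Ly6D+ and 11.4% ± 1.0 in TN (SD, n = 3 chips each). Gimap6 gave 46.8% ± 6.5 of the sum in Ly6D+ and 52.3% ± 3.9 in TN. Gimap9 gave 14.9% ± 2.6 and 17.4% ± 4.7, and Gimap7 gave 7.43% ± 0.11 in Ly6D+ and 12.8% ± 5.8 in TN. These shares are descriptions and were not tested.

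Counted cell by cell, the members were detected in more Ly6D+ than TN cells. Gimap6 was detected in 95.0%, 91.7% and 92.3% of cells on chips 4, 5 and 6 (Ly6D+) and in 45.3%, 49.3% and 47.8% on chips 1, 2 and 3 (TN). Gimap4 was detected in 62.5%, 48.3% and 48.1% of cells on the Ly6D+ chips and in 10.7%, 11.6% and 8.70% on the TN chips. For both genes every Ly6D+ chip lay far above every TN chip. Gimap9 was found in 66.6% ± 8.7 of the cells in Ly6D+ and 26.7% ± 2.4 in TN, Gimap1 in 41.0% ± 3.1 and 14.6% ± 0.1, and Gimap7 in 34.1% ± 5.0 and 13.4% ± 6.4 (SD, n = 3 chips each). Gimap5 was found in 20.3% ± 4.3 of the cells in Ly6D+ and 9.31% ± 2.44 in TN, and Gimap8 in 10.8% ± 4.7 and 2.30% ± 2.07. For these 7 genes all Ly6D+ chips lay above all TN chips, as they did for 10.4% of all genes tested, and the exact two-sided permutation test gave p = 0.1, the smallest that 3 chips against 3 allow. The differences of the rarer members depended on the detection limit. At 20 reads in place of 5 the difference was 2.59 percentage points for Gimap8 (8.51 at 5 reads), 4.32 for Gimap5 (11.0 at 5 reads) and 13.3 for Gimap1 (26.5 at 5 reads), with exact permutation p = 0.5 for Gimap8 and 0.1 for Gimap5 and Gimap1. Without the cells holding 2 or more mature lymphocyte markers it was 3.54 percentage points for Gimap8 and 12.1 for Gimap5 (exact permutation p = 0.4 for each), so their chips then overlapped. Gimap3 reached 5 reads in 4 Ly6D+ cells of 152 and 0 TN cells of 213 (exact permutation p = 0.4). Over the pooled TN cells that 0 allows a share of up to 1.41% of cells at this limit, counting error only, with neither the spread between chips nor missed transcripts included.

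**Figure D2:**
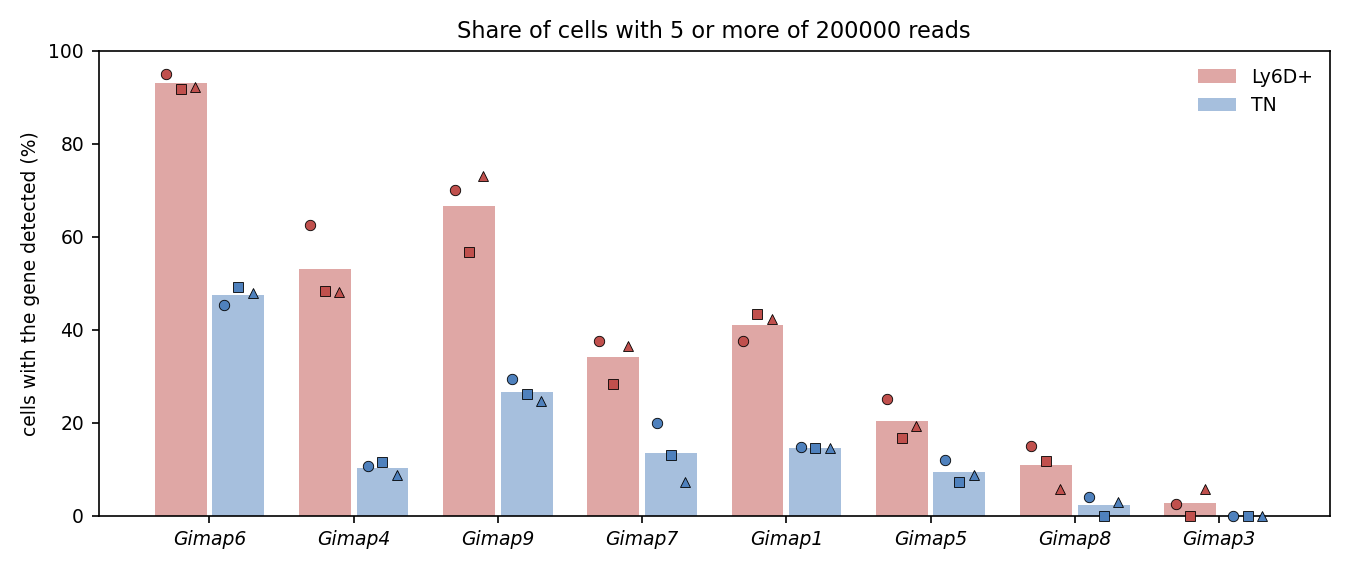
Share of cells in which each Gimap gene was detected, at 5 or more of 200000 reads. Bars are means over 3 chips (Ly6D+ red, TN blue) and points are chips. Ly6D+ chips lie above TN chips for all genes but Gimap3, from Gimap6 (93.0% against 47.5%) to Gimap8 (10.8% against 2.30%).

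Gimap4 and Gimap6 also held more reads in the cells where they were detected. The median level in detecting cells was 985, 1065 and 690 CPM for Gimap4 on the Ly6D+ chips and 250, 595 and 235 CPM on the TN chips. For Gimap6 it was 603, 835 and 873 CPM on the Ly6D+ chips and 368, 488 and 165 CPM on the TN chips. Neither gene overlapped between the fractions (exact two-sided permutation p = 0.1 for each, the smallest possible, n = 3 chips). The Gimap4 medians of TN chips 1, 2 and 3 come from 8, 8 and 6 cells. The share of all genes without overlap in this measure was not counted. Gimap9, Gimap7, Gimap1 and Gimap5 gave overlapping medians, with 278 ± 40 CPM on Ly6D+ chips and 222 ± 73 CPM on TN chips for Gimap9 (exact permutation p = 0.3), and 102.5 ± 18.9 and 94.2 ± 27.0 CPM for Gimap1 (exact permutation p = 0.8, SD, n = 3 chips each). Gimap8 was detected in few cells, with medians of 120.0, 60.0 and 75.0 CPM in 6, 7 and 3 cells on the Ly6D+ chips, and of 155 and 355 CPM in 3 and 2 cells on TN chips 1 and 3. Its medians were thus higher in the few TN cells, and TN chip 2 had none to compare. Gimap3 had no detecting TN cell. Single cells ranged widely. Gimap6 ran from 0 over a median of 703 to a highest value of 6340 CPM in Ly6D+ cells and from 0 over 5 to 3585 CPM in TN cells. Gimap4 had a median of 45 CPM and a highest value of 4215 CPM in Ly6D+ cells, and a median of 0 and a highest value of 4150 CPM in TN cells. The highest TN cells thus reached the Gimap4 level of the highest Ly6D+ cells.

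Most Ly6D+ cells held several Gimap transcripts and nearly as many TN cells held none as held any. Ly6D+ cells held 3.22 ± 0.24 detected members and TN cells 1.24 ± 0.11 (SD, n = 3 chips each). Cells with no member made up 3.78% ± 1.25 of Ly6D+ and 47.4% ± 1.6 of TN, and cells with 3 or more 67.2% ± 5.4 of Ly6D+ and 22.9% ± 4.5 of TN. Of 213 TN cells, 101 held none and 34 held Gimap6 alone. The commonest set in Ly6D+ cells was Gimap9, Gimap4 and Gimap6 together, in 13 of 152. No cell held all 8. Cells with no detected member held fewer detected genes in all in both fractions. In TN these were 2303 ± 148 against 2721 ± 92 in cells with a member (SD, n = 3 chips each). In Ly6D+ they were 2284 ± 191 against 2702 ± 210, from only 1, 3 and 2 cells without a member on chips 4, 5 and 6. Ly6D+ and TN cells held 2686 ± 214 and 2521 ± 83 detected genes (SD, n = 3 chips each). Within chips, the number of members correlated with the number of detected genes at 0.24 ± 0.12 in TN and −0.002 ± 0.179 in Ly6D+ (Spearman, SD, n = 3 chips each). The part of detected gene number in the Gimap counts was not tested.

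**Figure D3:**
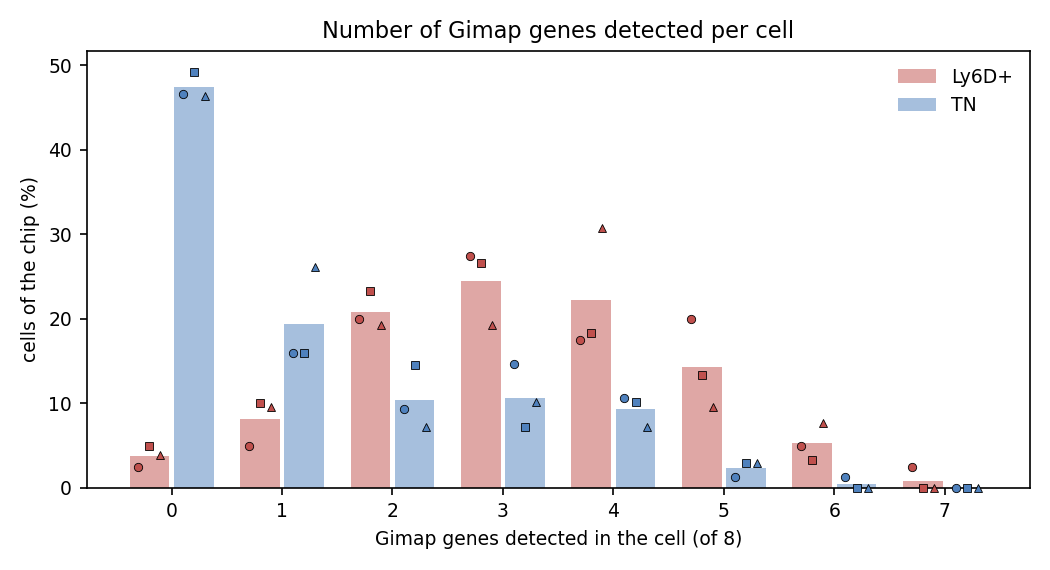
Number of Gimap genes detected per cell, as a share of the cells of a chip (bars are means over 3 chips, Ly6D+ red and TN blue, points are chips). Ly6D+ cells centre on 2 to 4 genes, and on every TN chip the tallest class is 0, with a mean of 47.4%.

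Within a chip, cells with one Gimap transcript tended to hold others, and the mean correlation over pairs was higher on each TN chip than on any Ly6D+ chip. Single pairs could differ. Gimap4 with Gimap1 stood at 0.198 on TN chip 1, below 0.305, 0.222 and 0.215 on chips 4, 5 and 6 (Ly6D+). For the 6 members detected in at least 10% of all cells, the mean Spearman correlation over the 15 pairs was 0.172 ± 0.027 on Ly6D+ chips and 0.362 ± 0.042 on TN chips (SD, n = 3 chips each). These correlations run across the 40 to 75 cells of a chip, which share a chip and differ in quality, and they are given as a description with no p. Of the 15 pairs, 14 were positive on all 6 chips. The exception was Gimap7 with Gimap1, at −0.07 on chip 6 (Ly6D+). The highest pair was Gimap9 with Gimap6 in TN (0.54 ± 0.04), against 0.14 ± 0.09 for this pair in Ly6D+. In Ly6D+ the highest pair was Gimap4 with Gimap6 (0.28 ± 0.06) and the lowest Gimap4 with Gimap5 (0.05 ± 0.05). Genes next to each other on the chromosome had a mean of 0.205 in Ly6D+ and 0.372 in TN, and the other pairs 0.156 in Ly6D+ and 0.357 in TN, so neighbours differed little from the rest.

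Gimap6, the most widely detected member, was also the one most often found beside the others. All 22 TN cells with Gimap4 also held Gimap6, which was detected in 41.4% of the TN cells without Gimap4. Of TN cells with Gimap9, 87.7% held Gimap6, against 32.7% of those without. For Gimap7 and Gimap1 the shares of TN cells that also held Gimap6 were 93.1% and 87.1%. In Ly6D+, where 141 of 152 cells held Gimap6, 78 of 79 cells with Gimap4 did.

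**Figure D4:**
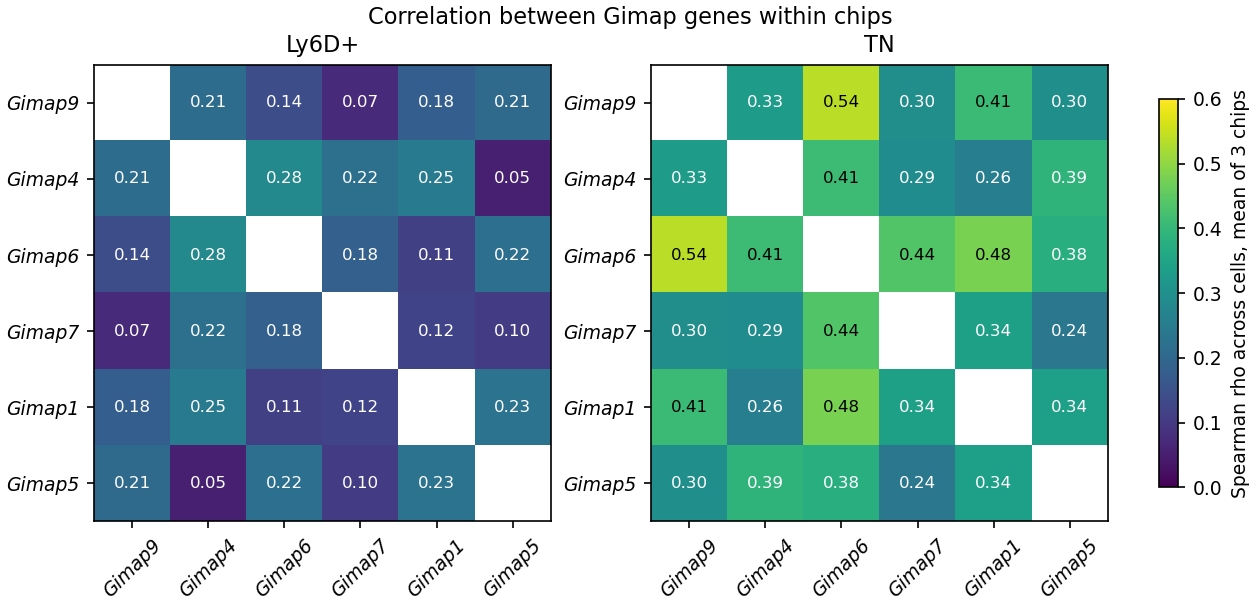
Spearman correlation across cells between pairs of Gimap genes, as the mean over the 3 chips of Ly6D+ (left) and of TN (right), with genes in chromosome order. Values run from 0.05 to 0.28 in Ly6D+ and from 0.24 to 0.54 in TN, with the row of Gimap6 highest in TN.

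Other genes were ranked by how closely they followed Gimap6, Gimap4 or the number of detected members across the cells of each chip, among 6951 genes detected in enough cells. Only genes whose correlations ran in 1 direction on every chip were ranked, which left 520 genes for Gimap6, 478 for Gimap4 and 720 for the number of members. That direction was part of the choice and shows no stability. Dntt, the gene of the enzyme that lengthens antigen receptor joints with untemplated bases, was most like Gimap6, with a correlation of 0.46 ± 0.12 in Ly6D+ and 0.67 ± 0.05 in TN (SD, n = 3 chips each), and also most like the number of members (0.49 ± 0.19 in Ly6D+ and 0.60 ± 0.06 in TN). After Dntt came Egfl7, Cd69, Dusp2, Emp1 and Lax1 for Gimap6, with means over the 6 chips from 0.35 to 0.39. For Gimap4 the most alike were Rag1 (0.42), a subunit of the V(D)J recombinase, and Ebf1 (0.40), a factor of B-lineage commitment, followed by Dntt (0.39), Frmd6 (0.37), Emp1 (0.36) and Rag2 (0.36). For the number of members Egfl7 (0.47), Nkg7 (0.46), Srgn (0.38), Msi2 (0.37) and Lax1 (0.37) followed Dntt.

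The most opposite genes were named in the same way. For Gimap6 these were Lgals1 (−0.42), Actb (−0.39), Irf8 (−0.39) and Anxa2 (−0.39), and for Gimap4 Fcer1g (−0.33), Irf8 (−0.33), Tyrobp (−0.30) and Tmem229b (−0.27), as means over the 6 chips. Irf8 encodes a transcription factor used by dendritic cells and monocytes, Lgals1 a galectin, Actb an actin, and Fcer1g and Tyrobp adaptors of innate receptors. For the number of members the most opposite were Ctsh (−0.41), Anxa2 (−0.37), Ly6c2 (−0.36) and Fcer1g (−0.35).

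Among the other lineage genes chosen for comparison, the mean within-chip correlation of Gimap6 with Rag1 was 0.39 ± 0.09 in Ly6D+ and 0.26 ± 0.03 in TN, with Ebf1 0.355 ± 0.062 and 0.17 ± 0.02, with Il7r 0.18 ± 0.28 and 0.31 ± 0.07, and with Flt3 0.17 ± 0.06 and 0.35 ± 0.08 (SD, n = 3 chips each). With the gate gene Ly6d it was negative in Ly6D+ (−0.20 ± 0.07) and positive in TN (0.18 ± 0.13), and with Ikzf1 it was −0.21 ± 0.23 and 0.18 ± 0.13. The myeloid genes Mpo (−0.02 ± 0.14 in Ly6D+ and 0.00 ± 0.15 in TN) and Csf1r (0.09 ± 0.22 and −0.19 ± 0.14) and the antigen presentation genes H2-Aa (−0.13 ± 0.11 and −0.18 ± 0.25) and Cd74 (−0.10 ± 0.11 and −0.15 ± 0.16) lay near 0 or varied between chips. With Mki67 the correlation was −0.30 ± 0.12 in Ly6D+ and −0.09 ± 0.02 in TN.

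Gimap6 was unevenly spread over TN cells split by Dntt. Dntt was the gene most like Gimap6 in these same cells, so the split restates that correlation as shares of cells. Gimap6 was detected in 95.5%, 91.7% and 84.2% of the 65 Dntt-positive TN cells on chips 1, 2 and 3, and in 24.5%, 26.7% and 34.0% of the 148 Dntt-negative TN cells. Gimap4 was detected in 27.3% ± 5.6 of the Dntt-positive and 2.70% ± 1.14 of the Dntt-negative TN cells, and the members per cell numbered 2.56 ± 0.30 and 0.658 ± 0.072 (SD, n = 3 chips). Beside these, the means over all Ly6D+ cells were 93.0% for Gimap6 and 53.0% for Gimap4. Among Dntt-positive cells of both fractions, Gimap6 was detected in 97.2% ± 1.1 of the 141 from Ly6D+ and 90.4% ± 5.7 of the 65 from TN, and Gimap4 in 56.0% ± 7.3 and 27.3% ± 5.6 (SD, n = 3 chips each, exact two-sided permutation p = 0.1 for both, the smallest possible). Gimap9 (71.1% ± 5.3 in Ly6D+ and 54.3% ± 7.3 in TN), Gimap1 (42.9% ± 4.0 and 31.1% ± 5.1) and Gimap8 (11.6% ± 5.0 and 3.27% ± 2.85) did not overlap (exact permutation p = 0.1 for each). Gimap7 and Gimap5 overlapped in this comparison, with 36.4% ± 3.2 in Ly6D+ and 31.3% ± 19.8 in TN for Gimap7 (exact permutation p = 0.8), and 21.6% ± 3.5 and 18.8% ± 5.5 for Gimap5 (exact permutation p = 0.6). The lowest Ly6D+ chip lay close to the highest TN chip for Gimap6 (96.0% on chip 6, 95.5% on chip 1). For Gimap8 these values were 6.0% on chip 6 (Ly6D+) and 5.26% on chip 3 (TN). The share of all genes without overlap among Dntt-positive cells was not counted. In Ly6D+, 11 cells lacked Dntt, as few as 1 on a chip.

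A split by Irf8 ran the other way in TN. Irf8 was among the genes most opposite to Gimap6 and Gimap4 in these same cells, and Ebf1 among those most like Gimap4. Their splits restate the ranking for those genes. The 172 Irf8-positive TN cells held 0.906 ± 0.033 members and the 41 Irf8-negative TN cells 2.98 ± 0.89 (SD, n = 3 chips), with as few as 5 Irf8-negative cells on a chip. Gimap1 was detected in 6.74% ± 3.77 of the Irf8-positive and 49.6% ± 9.0 of the Irf8-negative TN cells, and Gimap4 in 4.64% ± 0.84 and 40.8% ± 17.7. Among Ly6D+ cells the same split gave 3.05 ± 0.16 members in 104 Irf8-positive and 3.55 ± 0.39 in 48 Irf8-negative cells. In Ly6D+, Gimap4 was detected in 71.3% ± 4.2 of 63 Ebf1-positive and 39.3% ± 14.8 of 89 Ebf1-negative cells, and Gimap6 in 98.1% ± 3.2 and 89.4% ± 5.3. The share of cells with Gimap4 was lower on all 6 chips among cells with Mki67, a gene of dividing cells. It was 41.9% ± 3.5 in Mki67-positive and 64.3% ± 16.6 in Mki67-negative Ly6D+ cells, and 6.72% ± 2.02 in Mki67-positive and 16.4% ± 3.2 in Mki67-negative TN cells. Gimap6 was detected in 47.4% ± 2.3 of TN cells with Mki67 and in 47.6% ± 2.6 of those without. In Ly6D+ these shares were 88.85% ± 4.83 and 97.1% ± 5.1, with chip 5 the other way (92.3% and 91.2%). Members per cell were fewer with Mki67 on all 6 chips. They numbered 2.81 ± 0.13 with and 3.62 ± 0.47 without Mki67 in Ly6D+, and 1.12 ± 0.16 and 1.45 ± 0.07 in TN.

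Within TN, cells with the granule genes Mpo or Prtn3 held 0.949 ± 0.084 members and the others 1.54 ± 0.22 (105 and 108 cells, SD, n = 3 chips). Gimap1 was detected in 7.79% ± 2.38 of these granule gene cells and 21.4% ± 3.2 of the others. The antigen presentation gene H2-Aa marked 55 TN cells, and Gimap6 was detected in 30.4% ± 14.0 of them against 54.3% ± 9.0 of the TN cells without it. Cells with Id2, which encodes an inhibitor of E proteins, held Gimap6 in 33.3% ± 11.4 and Gimap1 in 21.5% ± 5.2, while TN cells without it held Gimap6 in 58.4% ± 10.0 and Gimap1 in 8.70% ± 3.87. Gimap1 was thus the more frequent in Id2-positive TN cells on all 3 chips and Gimap6 the less frequent. All splits of cells within a fraction are descriptions without a test.

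**Figure D5:**
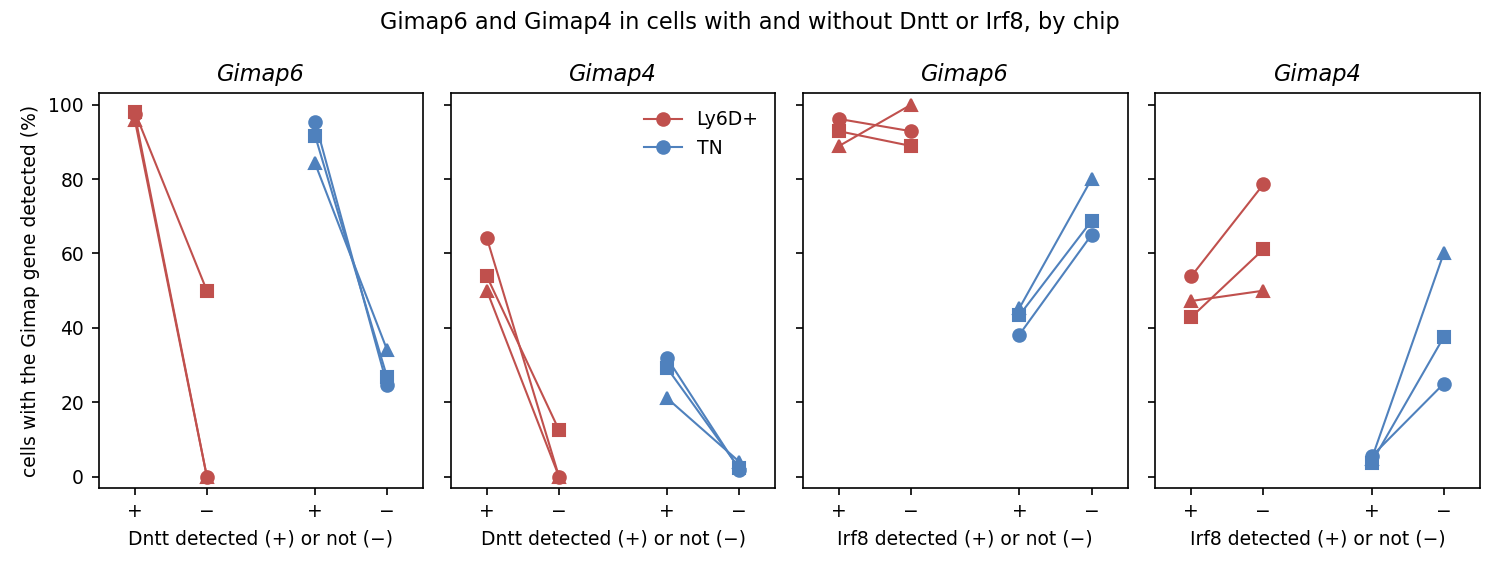
Share of cells with Gimap6 or Gimap4 detected, among cells with (+) and without (−) Dntt (left 2 panels) or Irf8 (right 2 panels), with 1 line per chip (Ly6D+ red, TN blue; the axis is linear). In TN, Gimap6 is detected in 84.2% to 95.5% of Dntt-positive and 24.5% to 34.0% of Dntt-negative cells, while Ly6D+ has 11 Dntt-negative cells in all. Dntt ranked among the genes most like both Gimap genes in these same cells, and Irf8 among the most opposite.

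Genes that act with Gimap proteins, or encode other GTPases, held no call with edgeR over all genes. Of 11 tested Bcl2 family genes 0 were called (3 lower and 0 higher at an unadjusted p under 0.05, 2 lower with DESeq2 and 1 lower with limma-trend), with a median log2 fold change of −0.56 against 0.01 over all genes. Bcl2 itself, which holds off cell death, averaged 220 ± 51 CPM over Ly6D+ chips and 424 ± 18 CPM over TN chips without overlap (SD, n = 3 each; edgeR adjusted p = 0.220), and Mcl1, another survival gene, 245 ± 13 and 244 ± 24 CPM. Of 12 tested Atg8 and autophagy genes 0 were called (1 higher and 1 lower unadjusted, 1 higher with DESeq2, 0 with limma-trend), with a median of 0.04. Gabarapl2, the mouse gene of the GIMAP6 partner, averaged 47.0 ± 5.0 CPM over Ly6D+ chips and 53.4 ± 5.6 CPM over TN chips, and Map1lc3b, another Atg8 gene, 437 ± 11 and 402 ± 28 CPM.

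Among the other GTPases, 0 of 13 interferon-inducible ones were called (0 unadjusted, 0 with DESeq2, 2 higher with limma-trend; median 1.27). All 13 overlapped between the fractions, as did all but 15.4% of all genes. Their summed level ran from 733 to 4768 CPM on Ly6D+ chips and from 657 to 1708 CPM on TN chips. Ifi47, which drew the most reads of them without correction for length, averaged 531 ± 298 CPM over Ly6D+ chips and 278 ± 84 CPM over TN chips. Of 7 septins 0 were called (1 higher unadjusted, 0 with DESeq2, 1 higher with limma-trend; median −0.08). Of 15 early lymphoid genes 3 were called higher with edgeR, Dntt, Ly6d and Rag2, against 0.0932% of all genes. Ly6d is the gate gene on which the fractions were sorted, so its call was set by the sort. At an unadjusted p under 0.05 10 of the 15 were higher (4.27% of all genes), with DESeq2 9 (1.77%) and with limma-trend 11 (1.87%). In each of these 3 counts 0 were lower. All Ly6D+ chips lay above all TN chips for 12 of the 15, against 7.64% of all genes.

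Markers of other cells that use Gimap genes were counted beside these values. Of 14 mature T cell markers 8 could be tested, and 0 were called with edgeR, DESeq2 or limma-trend or had an unadjusted p under 0.05. Cd3e was detected in no cell, and Cd3d and Cd3g in 0 Ly6D+ cells and in 3 and 1 TN cells. Other markers of the list were found more widely. Cd28 was detected in 47 Ly6D+ and 43 TN cells, Cd6 in 26 and 13, Lat in 24 and 24, and Cd247 in 11 and 9. Cd28 averaged 138 ± 19 CPM over Ly6D+ chips and 157 ± 87 CPM over TN chips (SD, n = 3 each). The summed T cell markers lay between 235 and 312 CPM on Ly6D+ chips and between 168 and 329 CPM on TN chips. Of 8 tested NK and innate lymphoid markers 0 were called (4 lower unadjusted, 1 lower with DESeq2, 1 higher and 1 lower with limma-trend), and the sum was 157 to 183 CPM in Ly6D+ against 201 to 445 CPM in TN. Of 10 endothelial markers 6 were detected in no cell. Egfl7, detected in 70 Ly6D+ and 63 TN cells, gave most of their sum of 115 to 161 CPM on Ly6D+ chips and 32.0 to 76.6 CPM on TN chips, and 0 of 4 tested were called (1 higher unadjusted, 0 with DESeq2 or limma-trend).

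The mature B cell and plasma cell list was higher in sum on Ly6D+ chips, and most of that sum was Cd79a and Cd79b, which encode the signalling chains of the B cell receptor and are also read in early B-lineage cells. The 11 in the table summed to 756 to 1524 CPM on Ly6D+ chips and 115 to 343 CPM on TN chips, and 0 of 6 tested were called with edgeR (3 higher and 1 lower unadjusted, 2 higher and 1 lower with DESeq2, 3 higher with limma-trend). Cd79a averaged 418 ± 78 CPM on Ly6D+ chips and 14.5 ± 25.2 CPM on TN chips and was detected in 57 Ly6D+ and 3 TN cells. Cd79b averaged 568 ± 264 and 131 ± 44 CPM (SD, n = 3 chips each) and was detected in 64 Ly6D+ and 69 TN cells. Sdc1 averaged 54.2 ± 39.4 and 11.6 ± 10.2 CPM, without overlap. Ms4a1, Cr2 and Fcer2a, markers of mature B cells, were each detected in 0 Ly6D+ cells and 1 TN cell, and Jchain and Prdm1, of plasma cells, in 0 and 0. Cd22 averaged 8.44 ± 7.68 CPM on Ly6D+ chips and 62.2 ± 43.1 CPM on TN chips, with overlap (edgeR adjusted p = 0.400, log2 fold change −2.88). The part of these transcripts in the Gimap values was not tested, and Gimap4 and Gimap6 without the cells holding 2 or more mature lymphocyte markers were given with each gene. Of 10 myeloid markers 2 were called lower in Ly6D+ with edgeR, Mpo and Elane (5 lower with DESeq2 and 6 with limma-trend), and of 10 dendritic markers 1, Cst3 (3 lower and 1 higher with DESeq2, 4 lower with limma-trend). Over all genes, 0.11% were called lower with edgeR, 203 of 11072 with DESeq2 and 105 of 11797 with limma-trend. The 1 erythroid or megakaryocyte marker that could be tested had an unadjusted p over 0.05 and no call with DESeq2 or limma-trend. Of the 9 tested genes of the EPLM gates 1 was called with edgeR, Ly6d, on which the fractions were sorted (5 higher with DESeq2 and 5 with limma-trend).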

How the data were processed

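The authors deposited raw read counts, 1 row per gene and 1 column per cell, together with a length for each gene. Per the submitters' processing notes, mm9 and R 3.2.0 were used. The sources used here do not give the aligner, the counting program, its strand setting or any step against doublets. No doublet caller was applied. The chips had captured 178 Ly6D+ and 232 TN cells, per the series' design text, before the authors removed those with under 60% of reads mapped, too low a count or under 800 genes. Symbols were matched by Entrez identifier to RefSeq (GRCm38.p6) for 23334 genes, and promoter sequences came from the same source. Since the counts use another build, reference coordinates apply to the sequences alone.

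Chip sums of the counts were compared in R 4.3.3 by edgeR 4.0.16 (quasi-likelihood method with TMM factors and filterByExpr, Benjamini-Hochberg adjustment, threshold 0.05). All 6 chips entered the fit, fold changes are Ly6D+ over TN, and CPM uses TMM-scaled library sizes. Shares of cells were averaged per chip and tested by exact permutation, two-sided. DESeq2 1.42.0 and limma 3.58.1 (limma-trend on chip means of log2(CPM+1)) were alternatives, beside other size factors, no filter, thinned reads, left-out chips, left-out cells and other detection limits. The comparison of Ly6D+ with TN chip sums was tested on simulated data over 11797 genes, where edgeR recovered 0.667% of 2-fold, 24.7% of 4-fold, 40.0% of 8-fold and 56.7% of 16-fold changes, so a gene without a call may still differ. The number of cells limits the share that a count of 0 allows (3 counts). Such limits cover counting error only, and the libraries carry no molecular identifiers.

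The Gimap genes, the gene lists, the splits and the tests were chosen with earlier results of these data known. Genes named outside the family were the called members of each list and otherwise up to 3 with the most reads, 14 lineage genes fixed as anchors (Dntt, Irf8 and Mki67 among them), and the 6 most alike and 4 most opposite genes for Gimap6, Gimap4 and the number of detected members, among genes detected in at least 10% of cells. Gabarapl2, Kit, Id2, Prtn3 and single marker genes lie outside this rule and were named after their values were seen. A list of further GTPases and a single B cell marker are not reported here. Ighm and Ighd of the B cell list were not matched to the table. All Gimap promoters were searched for motifs, and the 3 printed were picked by p-value.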

Additional observations from a re-analysis of the deposited data

How the results depend on the processing

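Every tested member kept a log2 fold change above 0 in all 17 fits, and no result reversed. The cause of a lost or gained call was not tested. With edgeR on all chips 11 genes were called higher and 13 lower, among them 2 Gimap genes. DESeq2 called 196 higher and 203 lower with 4 Gimap genes (Gimap1 and Gimap9 added), and limma-trend 221 higher and 105 lower with 5 (Gimap7 added too). Leaving out 1 chip gave 1 to 7 higher and 1 to 16 lower with 1 Gimap gene each time, Gimap4 (edgeR adjusted p from 0.0171 to 0.0278). The calls numbered 2 higher and 2 lower without Ly6D+ chip 4, and 1 and 1 without Ly6D+ chip 6. Without the Xist cells there were 3 higher and 4 lower genes, with Gimap4 and Gimap6 among the 3. Without the cells holding mature lymphocyte markers edgeR called 0 higher, 0 lower and 0 Gimap genes. There, 768 of 11034 genes had an unadjusted p under 0.05, 339 of them higher. Of the 7 tested Gimap genes, 4 were higher at this unadjusted threshold. No other tool was run on that subset. Gimap9 passed without cells under 1500 genes (edgeR adjusted p = 0.0375). Leaving out cells with a Cd3 gene, or the cell richest in Gimap reads on each chip, both chosen after seeing the data, kept the 2 calls.

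The difference in members detected per cell, 1.98, lay between 1.86 and 2.10 with any 1 chip left out, and was 2.36 at 1 thinned read and 1.60 at 20. The mean correlation between members, 0.172 in Ly6D+ and 0.362 in TN, was 0.135 and 0.306 as a phi coefficient of detection, and 0.120 and 0.412 without cells holding mature lymphocyte markers. No paired analysis was possible because replicate numbers are chip numbers and no number occurs in both fractions. Chip and fraction cannot be told apart, and with 3 chips a fraction the exact tests cannot pass 0.05.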

Other observations

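TN chip 2 held 41 cells with Xist and 28 without. The cells with Xist held 1.195 detected Gimap members on average and the cells without Xist 1.25. Gimap6 was detected in 46.3% of the cells with Xist and in 53.6% of the others, Gimap9 in 26.8% and 25%, Gimap1 in 14.6% and 14.3%, and Gimap7 in 17.1% and 7.14%. No test was made, since all of these cells share a chip.

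The receptor gene Il7r split both fractions. Gimap4 was detected in 61.6% ± 8.3 of 105 Il7r-positive and 32.0% ± 3.8 of 47 Il7r-negative Ly6D+ cells, and in 28.2% ± 10.3 of 32 Il7r-positive and 7.80% ± 1.44 of 181 Il7r-negative TN cells (SD, n = 3 chips). Gimap6 was detected in 78.5% ± 1.5 of Il7r-positive and 41.9% ± 3.3 of Il7r-negative TN cells. Notch1, which encodes a receptor for T-lineage signals, followed Gimap6 across TN cells (Spearman correlation 0.46 ± 0.12) and was near 0 across Ly6D+ cells (0.01 ± 0.10, SD, n = 3 chips each). The difference between the fractions was not tested. A split by Kit, the stem cell factor receptor gene, gave Gimap6 in 49.0% ± 4.9 of Kit-positive and 47.2% ± 1.4 of Kit-negative TN cells.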
